A study of Mus musculus with 10 samples.

Results

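The cells described here are those that the authors' annotation of mouse hippocampus names VSMC, read by the usual meaning of the abbreviation as vascular smooth muscle cells. All rows of the deposited cell table with that class name were taken, which gave 288 of 68914 annotated cells (0.418%). VSMC were the second smallest of 16 classes and formed 1 whole cluster, number 23 of 32, which held no cell of another class. The markers proposed for the class, Acta2, Tagln and Myh11, encode contractile proteins of smooth muscle. Gene values were not analysed here, because the table holds names and map positions alone, so the name was not checked against these markers.

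The 10 libraries are from C57BL/6 mice, all male, wild type and 11 weeks old, whose hippocampi were injected on both sides. Vehicle went into 4 mice, full-length NfL (FL-NfL) into 3 and coiled-coil NfL (CC-NfL) into 3, each protein at 1 mg/ml, and single cells were sequenced after 3 days. NfL, the light chain of neurofilaments, belongs to the intermediate filaments that fill axons, and the study asked what NfL supplied from outside does to cells of the living brain. All groups share the injection, and no group received an unrelated protein. Each library has a label of batch b1 (2 per group) or batch b2 (2 vehicle, 1 FL-NfL and 1 CC-NfL).

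Smooth muscle cells wrap arteries, arterioles and, more thinly, venules, and set the width of the vessel by contracting. Together with pericytes, which sit on capillaries, they are the mural cells of the vessel wall, and both lie on the endothelium. In the brain they adjust local blood flow to neuronal activity. The annotation also holds 875 cells named BMEC, read as brain microvascular endothelial cells, 696 pericytes, 371 cells named VECA, a vascular class that the annotation does not spell out, and 224 cells named VLMC, read as vascular leptomeningeal cells. VSMC made up 11.7% of the 2454 cells of these 5 vascular classes.

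Libraries held 3150 to 6025 annotated cells in b1 and 8800 to 14141 in b2. The share of barcodes without annotation ran from 42.0% to 71.3% in b1 and from 17.3% to 20.7% in b2. No VSMC barcode sequence occurred in more than 1 library's VSMC (0 of 288), and 6 (2.08%) occurred in another row of the table, against 2.57% of all annotated cells.

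VSMC were few in every library of b1. Vehicle replicate 1 held 7 among 3874 annotated cells (0.181%, exact 95% interval 0.0727% to 0.372%) and vehicle replicate 2 held 6 among 3290 (0.182%, 0.0670% to 0.397%). FL-NfL replicate 1 held 3 among 4220 (0.0711%, 0.0147% to 0.208%) and FL-NfL replicate 2 held 5 among 3150 (0.159%, 0.0516% to 0.370%). CC-NfL replicate 1 held 5 among 4324 (0.116%, 0.0376% to 0.270%) and CC-NfL replicate 2 held 12 among 6025 (0.199%, 0.103% to 0.348%). The 3 groups overlapped within b1, and every interval included the highest and the lowest vehicle value of that batch.

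In b2 VSMC were more numerous. Vehicle replicate 3 held 84 among 9761 annotated cells (0.861%, exact 95% interval 0.687% to 1.06%) and vehicle replicate 4 held 52 among 8800 (0.591%, 0.442% to 0.774%). FL-NfL replicate 3 held 65 among 11329 (0.574%, 0.443% to 0.731%). CC-NfL replicate 3 held 49 among 14141 (0.347%, 0.256% to 0.458%). The CC-NfL library was the lowest of the 4. Its interval ended below that of vehicle replicate 3 and overlapped those of vehicle replicate 4 and FL-NfL replicate 3 only at the edge. FL-NfL replicate 3 lay just under vehicle replicate 4, and the intervals of these libraries covered most of the same range. Clopper-Pearson intervals cover counting error alone.

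**Figure D1:**
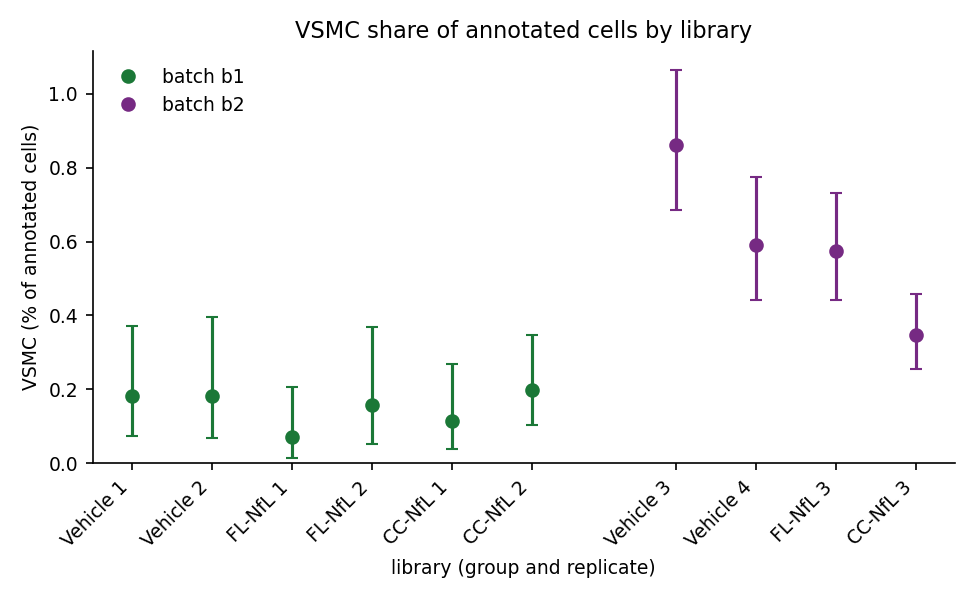
VSMC as a percentage of annotated cells (vertical axis) in each of the 10 libraries (horizontal axis, named by group and replicate), green for batch b1 and purple for batch b2. Points are the shares and bars their exact 95% counting intervals. All 6 b1 libraries lie at or below 0.199%, and all 4 b2 libraries at or above 0.347%.

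The share of VSMC differed between the batches. VSMC made up 0.151% ± 0.0487 of annotated cells in b1 (SD, n = 6) and 0.593% ± 0.210 in b2 (SD, n = 4), 3.92 times as much, and the ranges did not overlap. Batch b2 supplied 63.9% of the annotated cells and 250 of the 288 VSMC (86.8%). With group and batch as terms, the log2 odds ratio of b2 against b1 was 1.77 (SE 0.35, 95% interval 0.96 to 2.58, limma adjusted p = 0.0142). VSMC were the class that passed limma's test for batch, 1 of 16 (6.25%), and the class whose batch ranges did not overlap, also 1 of 16 (6.25%). For the percentage itself, the exact permutation p was 0.00476 with all splits counted, the smallest that 10 libraries in these batches allow, and 0.0185 when libraries were exchanged within their group. The call ended without vehicle replicate 3 (limma adjusted p = 0.0602, log2 odds ratio 1.67), without FL-NfL replicate 3 (0.128, 1.58), without the 3 libraries numbered 1 (0.0698, 1.50) and on the arcsine scale (0.128). The number of annotated cells and the share of barcodes without annotation moved with batch, and their part in the difference was not tested. As a share of all barcodes, VSMC made up 0.0776% ± 0.0342 in b1 (SD, n = 6) and 0.483% ± 0.177 in b2 (SD, n = 4), so the gap was wider there, with a log2 odds ratio of 2.53 (limma adjusted p = 0.0126).

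The other vascular classes did not pass limma's test for batch. Pericytes, the other mural class, made up 1.10% ± 0.512 of annotated cells in b1 (SD, n = 6) and 0.958% ± 0.0995 in b2 (SD, n = 4), with a log2 odds ratio of -0.15 (SE 0.42). Endothelial BMEC made up 1.38% ± 0.509 and 1.28% ± 0.434 (-0.18, SE 0.32). VECA made up 0.460% ± 0.463 and 0.601% ± 0.342 (0.65, SE 0.74), and VLMC 0.267% ± 0.214 and 0.371% ± 0.110 (1.05, SE 1.03). Outside the vessels, the widest ratio of batch means above 1 was that of astrocytes, at 3.61% ± 1.45 and 6.77% ± 2.09 (1.88 times, log2 odds ratio 0.97, SE 0.44). The lowest ratio was that of neural progenitors, at 9.76% ± 8.17 and 4.07% ± 1.99 (0.417 times, log2 odds ratio -0.85, SE 0.88).

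**Figure D2:**
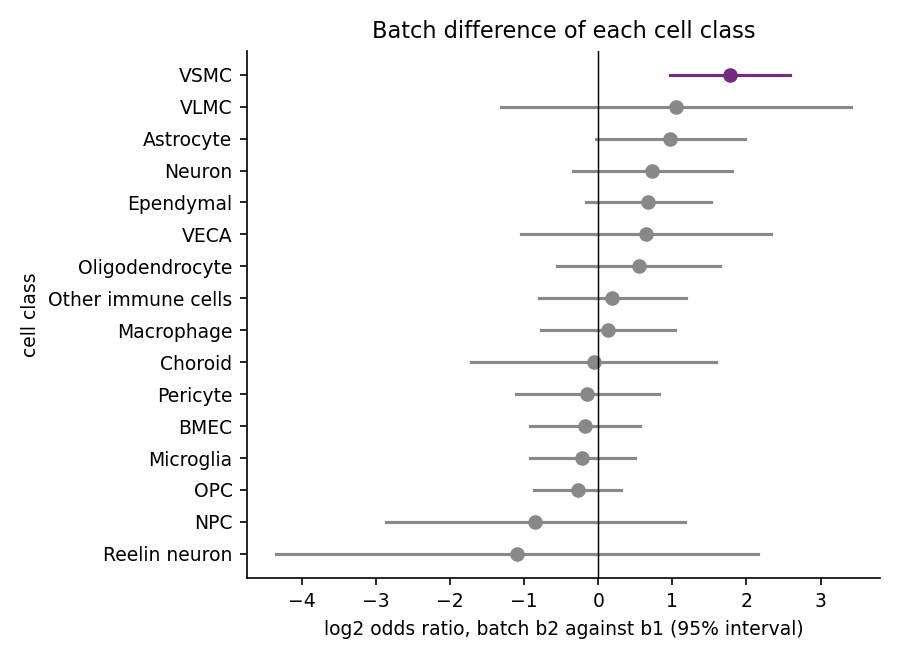
Log2 odds ratio of batch b2 against b1 (horizontal axis) for each of the 16 cell classes (vertical axis), with points for the estimates and lines for their 95% intervals from limma. The VSMC line, in purple, runs from 0.96 to 2.58, and its point lies furthest to the right. The lines of the other 15 classes all cross 0.

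The spread of the VSMC percentage was set beside the spread that counting alone gives, as a description with no test. The observed SD of the VSMC percentage over the 6 libraries of b1 was 0.0487, against 0.0620 expected from the number of cells counted, a ratio of 0.786, though by group this ran from 0.0166 for 2 vehicle libraries to 1.13 for 2 FL-NfL libraries. Over the 4 libraries of b2 the SD was 0.210 against 0.0728 from counting, a ratio of 2.89. The 2 vehicle libraries of b2 had an SD of 0.191 against 0.0886 from counting, a ratio of 2.15.

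FL-NfL was compared with vehicle to see whether the share of VSMC differed after the full-length protein. VSMC made up 0.454% ± 0.333 of annotated cells after vehicle (SD, n = 4) and 0.268% ± 0.269 after FL-NfL (SD, n = 3). Within b1 the library means were 0.182% after vehicle and 0.115% after FL-NfL. Within b2 the vehicle mean was 0.726%, against 0.574% in the 1 FL-NfL library. The log2 odds ratio with batch as a term was -0.59 (SE 0.42, 95% interval -1.55 to 0.36), which did not pass the test (limma adjusted p = 0.948, unadjusted 0.193). Limma called 2 of 16 classes in this comparison (12.5%), and VSMC were not among them. The 2 were macrophages (log2 odds ratio 2.44) and other immune cells (2.16), which are part of the total of annotated cells. Over non-immune cells the VSMC log2 odds ratio was -0.45 (limma adjusted p = 0.924).

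After CC-NfL, VSMC made up 0.220% ± 0.117 of annotated cells (SD, n = 3). Within b1 the CC-NfL mean was 0.157%, against 0.182% after vehicle, and within b2 the 1 CC-NfL library held 0.347%, against 0.726%. The log2 odds ratio against vehicle was -0.54 (SE 0.42, 95% interval -1.50 to 0.41) and did not pass the test (limma adjusted p = 0.604, unadjusted 0.226). Limma called 0 of 16 classes here (0%), with 3 at an unadjusted p under 0.05. A quasi-binomial model of the cell counts gave VSMC a log2 odds ratio of -0.91, with an unadjusted p of 0.0237 and an adjusted p of 0.0758, and called 0 classes.

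Between the proteins, the log2 odds ratio of FL-NfL against CC-NfL was -0.05 (SE 0.44, 95% interval -1.06 to 0.96, limma adjusted p = 0.918). Limma called 0 of 16 classes (0%), with 1 at an unadjusted p under 0.05. By the quasi-binomial model 0 passed. FL-NfL lay below CC-NfL in b1 and above it in b2, so no order of the proteins can be read. With both proteins taken as 1 group of 6 libraries, VSMC made up 0.244% ± 0.187 (SD, n = 6), and the log2 odds ratio against vehicle was -0.57 (SE 0.35, 95% interval -1.38 to 0.24, limma adjusted p = 0.582). A negative estimate was not particular to VSMC. In the same fit pericytes had -0.56, BMEC -0.54, VECA -0.64 and VLMC -0.38, and none of them passed limma's test. Over non-immune cells the VSMC log2 odds ratio was -0.46 (limma adjusted p = 0.915). Over annotated cells, limma called 2 of 16 classes for either NfL against vehicle (12.5%), and 0 with the replicate number as a block. The 2 were macrophages (log2 odds ratio 1.93) and other immune cells (1.68). The quasi-binomial model gave VSMC a log2 odds ratio of -0.66 there (95% interval -1.25 to -0.07). Its unadjusted p was 0.0336 and its adjusted p 0.135, which did not pass. Exchanging libraries within batches gave a difference of -0.140 percentage points with an exact permutation p of 0.0778. Both proteins were set against the same vehicle libraries, which ties the estimates together. The p-values measure the spread between libraries. These shares count cells recovered after dissociation and a sort for live cells.

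Among vascular cells VSMC showed the same split by batch. They made up 3.61% and 5.17% of vascular cells in vehicle replicates 1 and 2, 2.63% and 4.24% in FL-NfL replicates 1 and 2, and 7.58% and 5.45% in CC-NfL replicates 1 and 2. In b2 they made up 16.4% and 17.1% in vehicle replicates 3 and 4, 14.8% in FL-NfL replicate 3 and 13.2% in CC-NfL replicate 3. The b1 libraries averaged 4.78% ± 1.72 (SD, n = 6) and the b2 libraries 15.4% ± 1.75 (SD, n = 4), with no overlap. The log2 odds ratio of b2 against b1 was 1.81 (SE 0.35, 95% interval 1.01 to 2.60, limma adjusted p = 0.00308), and VSMC were the 1 of 5 classes called (20%). The exact permutation p was 0.00476 over all splits, the smallest possible, and 0.0185 within groups. The vascular classes together made up 3.36% ± 1.16 of annotated cells in b1 (SD, n = 6) and 3.80% ± 1.09 in b2 (SD, n = 4).

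**Figure D3:**
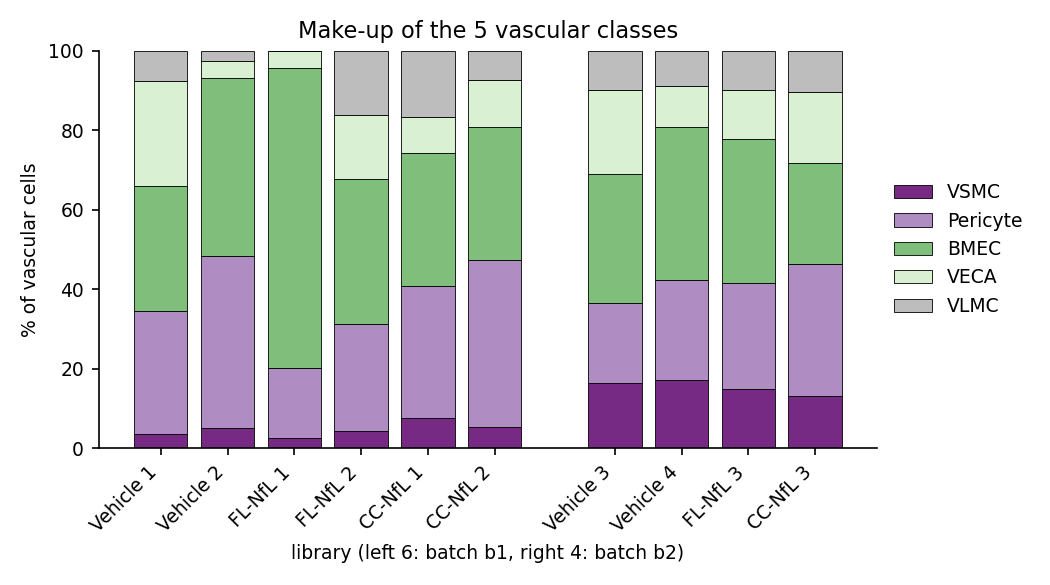
Makeup of the vascular cells of each library (horizontal axis) as the percentage of each of the 5 vascular classes (vertical axis). VSMC range from 2.63% to 7.58% in b1 and from 13.2% to 17.1% in b2.

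No treatment comparison of the vascular share passed the test. VSMC made up 10.6% ± 7.17 of vascular cells after vehicle (SD, n = 4), 7.24% ± 6.63 after FL-NfL (SD, n = 3) and 8.73% ± 3.99 after CC-NfL (SD, n = 3). With batch as a term, the log2 odds ratio was -0.32 for FL-NfL against vehicle (SE 0.41, 95% interval -1.26 to 0.62, limma adjusted p = 0.652). It was 0.22 for CC-NfL against vehicle (SE 0.41, 95% interval -0.72 to 1.16, limma adjusted p = 0.763). FL-NfL against CC-NfL gave -0.54 (SE 0.44, 95% interval -1.53 to 0.45, limma adjusted p = 0.325). Either NfL against vehicle gave -0.05 (SE 0.35, 95% interval -0.85 to 0.74, limma adjusted p = 0.894). Limma called 0 of 5 classes in each of these comparisons (0%), with 0 at an unadjusted p under 0.05. By the quasi-binomial model 0 passed as well.

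The ratio of VSMC to pericytes compares the mural cells of larger vessels with those of capillaries. It was 0.117 and 0.120 VSMC per pericyte in vehicle replicates 1 and 2, 0.150 and 0.156 in FL-NfL replicates 1 and 2, and 0.227 and 0.130 in CC-NfL replicates 1 and 2. In b2 it was 0.816 and 0.675 in vehicle replicates 3 and 4, 0.556 in FL-NfL replicate 3 and 0.398 in CC-NfL replicate 3. The vehicle libraries were thus the 2 lowest of b1 and the 2 highest of b2. The ratio was 0.150 ± 0.0410 in b1 (SD, n = 6) and 0.611 ± 0.177 in b2 (SD, n = 4). On the log2 scale, with 0.5 cells added to each count, the batches differed by 1.91, with 0.00476 as the exact permutation p for all splits, the smallest possible, and 0.0185 within groups.

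**Figure D4:**
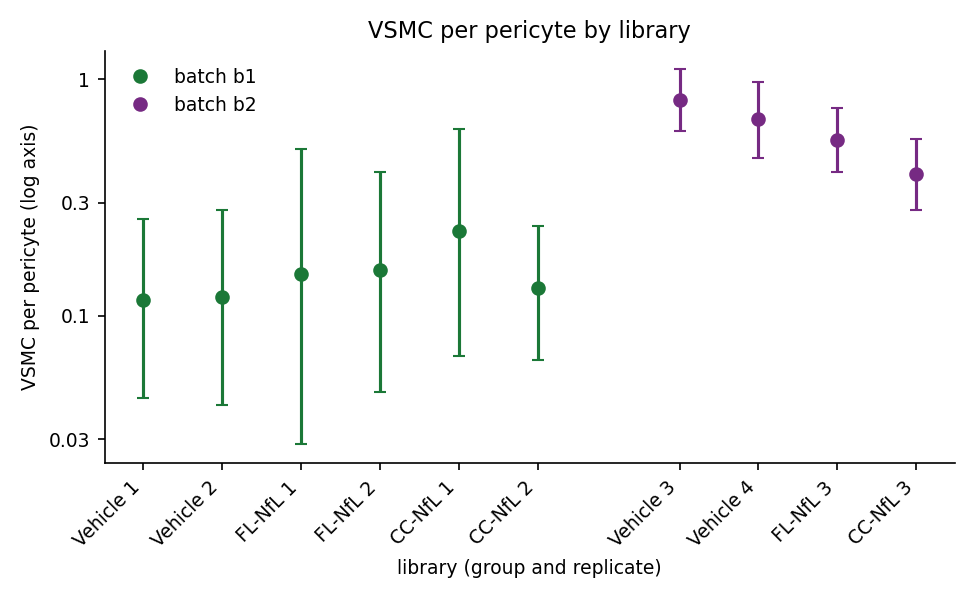
VSMC per pericyte (vertical axis, log scale) in each library (horizontal axis), coloured by batch, with exact 95% counting intervals as bars. The b1 libraries lie between 0.117 and 0.227 and the b2 libraries between 0.398 and 0.816, with vehicle lowest in b1 and highest in b2.

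Over all libraries the ratio was 0.432 ± 0.367 after vehicle (SD, n = 4), 0.287 ± 0.232 after FL-NfL (SD, n = 3) and 0.252 ± 0.136 after CC-NfL (SD, n = 3). The log2 difference was -0.28 for FL-NfL against vehicle (exact permutation p = 0.829) and -0.37 for CC-NfL against vehicle (exact permutation p = 0.771). It was 0.09 between FL-NfL and CC-NfL (exact permutation p = 1) and -0.33 for either NfL against vehicle (exact permutation p = 0.671). All 4 adjusted p were 1 in these two-sided tests. They took no account of batch, although the ratio differed between the batches and the groups were unevenly divided over them. The smallest p possible was 0.0286 for 4 against 3 libraries and 0.10 for 3 against 3. Compared within batches, FL-NfL against vehicle turned to 0.09, CC-NfL against vehicle came to -0.04 (exact permutation p = 0.889), and either NfL against vehicle came to -0.01. With 18 splits within batches, a p under 0.05 was not possible for a single protein against vehicle.

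Whether VSMC varied with other classes across libraries could be tested within b1. The batches formed separate ranges of VSMC share, so no pooled correlation is given, and b2 holds 4 libraries, too few for one. Over the 6 libraries of b1, the log2 odds of VSMC and pericytes had a Pearson r of 0.93 (exact permutation p = 0.00694, adjusted p = 0.0521) and a Spearman rho of 0.83 (exact permutation p = 0.0583, adjusted p = 0.438). Without the 2 libraries farthest from the median of the pericyte log2 odds r was 0.90. These 2 libraries were chosen anew for each class, by that class's own values, and each such r rests on 4 libraries and has no test. Reelin neurons had an r of 0.98 (exact permutation p = 0.00694, adjusted p = 0.0521) and a rho of 0.83 (exact permutation p = 0.0583, adjusted p = 0.438). Their r was 0.59 without the 2 libraries farthest from their own median. VLMC came next (r = 0.77, 0.23 without the 2 libraries farthest from the VLMC median). The lowest values were those of neural progenitors, named NPC (r = -0.58), macrophages (r = -0.57) and astrocytes (r = -0.56). On the centred log ratio pericytes had an r of 0.81, Reelin neurons 0.76 and VLMC 0.39, while the lowest were ependymal cells (-0.78, against -0.14 on log2 odds), macrophages (-0.69) and astrocytes (-0.62), with NPC at -0.45. None of the 15 relations passed after adjustment over the classes on either scale. Each point shares its library's total of annotated cells, and VSMC counts in b1 ran from 3 to 12. The 6 libraries come from all the treatment groups, and the correlations had no group term, so differences between groups enter them.

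On the authors' t-SNE map, a flat layout that places cells with similar expression near each other, the VSMC formed 1 island of 288 cells. It spanned 2.06 map units of 69.9 along one axis and 1.80 of 67.4 along the other. Of the 30 nearest annotated neighbours of each VSMC, 99.7% were VSMC on average, and the rest were pericytes. Such a value was usual for this map. By the same measure every class lay between 99.6% and 100%, with BMEC, VECA and VLMC at 100%. Seen from VSMC, the nearest pericyte lay at a median distance of 1.31 map units, the nearest neuron at 6.15 and the nearest microglial cell at 8.50. The nearest BMEC lay at 24.0, the nearest VECA at 37.1 and the nearest VLMC at 66.7. Of the 696 pericytes, 3 had mostly VSMC neighbours. Names and map may rest on the same genes, so this separation is a description, and long distances on such a map carry little meaning.

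**Figure D5:**
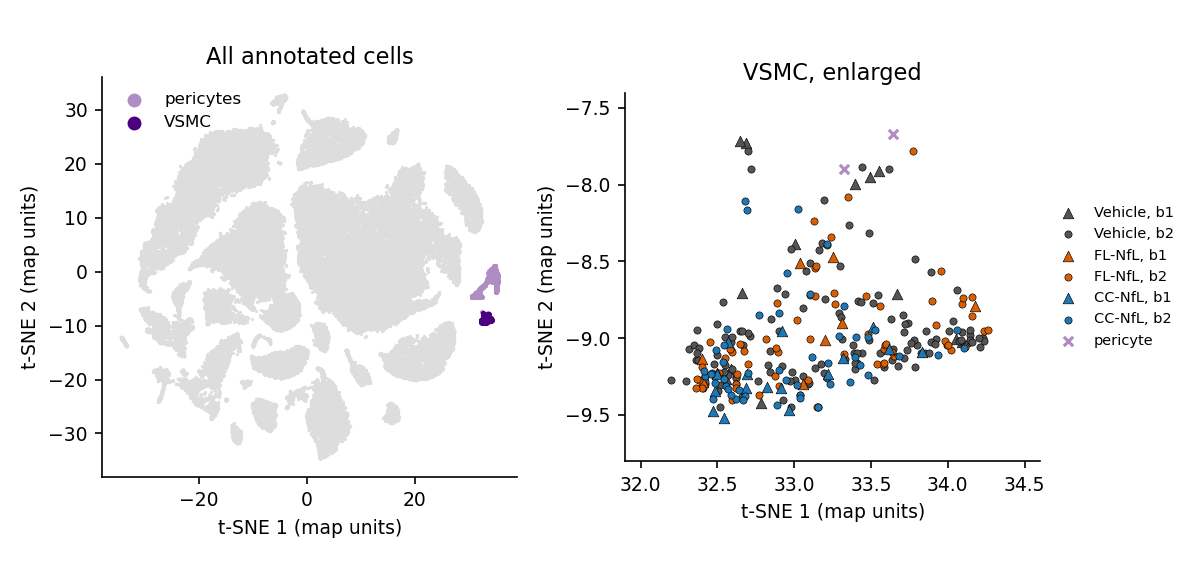
The authors' t-SNE map (both axes in map units), with all annotated cells in grey on the left and the VSMC enlarged on the right, coloured by group, with triangles for b1, circles for b2 and crosses for pericytes. All 288 VSMC form 1 island, with pericytes as the nearest other cells.

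No library placed VSMC among other classes: 0 of 288 cells had fewer than 50% VSMC neighbours, so there was no difference between groups to test. Within the island, cells of each batch and group had neighbours of the others, which was described and not tested. Of the 10 nearest VSMC, 9.47% were from b1 around b1 cells, against 12.9% if cells were mixed at random, and 87.7% were from b2 around b2 cells, against 86.8%. The same-group share was 54.4% for vehicle (51.6% if mixed), 29.3% for FL-NfL (25.1%) and 27.4% for CC-NfL (22.6%). Within batches too it lay above the mixed value for all 3 groups, with the highest ratio for CC-NfL in b1, at 57.6% against 43.2%, and the next for FL-NfL in b2, at 30.8% against 25.7%. The CC-NfL cells of b1 were 17 from 2 libraries. In b2 each protein has 1 library, so group and library cannot be told apart there. The mean position on the second axis was -8.41 and -8.69 in vehicle replicates 1 and 2. It lay between -9.24 and -8.92 in the other 7 libraries with at least 5 VSMC. These vehicle means rest on 7 and 6 cells.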

How the data were processed

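Single cells of 10 hippocampal libraries were sequenced with 10x 3′ chemistry. Cell Ranger 6.0.1 and the build GRCm38 are named per the submitters' processing notes; for filters, doublets, clustering and class names, the method is not given in the sources used here. Each row of the deposited table gives a cell's library, batch, cluster, class and t-SNE position. The positions are a score without a natural unit, made by the authors. Of 108266 barcodes, the 68914 with a class were used.

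VSMC were counted per library, which was the replicate. Shares were tested as log2((cells + 0.5)/(other cells + 0.5)) with limma 3.58.1 (R 4.3.3) in a model of group and batch. P-values were two-sided and Benjamini-Hochberg adjusted over 16 classes (or 5 vascular classes), at a threshold of 0.05. Single values had exact permutation tests over libraries. Intervals of shares are Clopper-Pearson, at 95%. The fit was also run on simulated data in which VSMC were unchanged or raised after NfL, and decreases were not simulated. The depth is the number of annotated cells, 3150 to 14141 per library.

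The items named were VSMC, the other 4 vascular classes, the 3 classes with the highest and the 3 with the lowest correlation, and the nearest classes on the map. The members, lists and tests were chosen with earlier results of these data known. The comparison of the NfL difference between batches was added after the data were seen. Alternatives changed the scale, model, denominator, weights and libraries. The deviations of same-numbered libraries were correlated over 16 classes, with no test. For CC-NfL the r was 0.16, 0.41 and 0.19 with vehicle, and 0.33, 0.54 and 0.20 with FL-NfL. For FL-NfL with vehicle it was -0.13, -0.05 and 0.35. These deviations still hold the batch. With batch removed, the values were 0.04, 0.32 and 0.10, then 0.29, 0.54 and -0.10, then -0.31, -0.16 and 0.23, so their signs were mixed. The labels do not say that a number marks a shared animal or day.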

Additional observations from a re-analysis of the deposited data

Results flagged for a closer look

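The difference in VSMC per pericyte between either NfL and vehicle ran in opposite directions in the batches. On the log2 scale it was 0.48 in b1, where all 4 NfL libraries lay above both vehicle libraries, and -0.65 in b2, where both NfL libraries lay below both vehicle libraries. The difference between batches was -1.13, with an exact permutation p of 0.0333 over 90 splits within batches. It was noticed in these data and then tested on them, and the p is not adjusted. In b1 the ratios rest on 3 to 12 VSMC per library, and b2 holds 1 library of each protein. The exact p came to 0.0667 without vehicle replicate 1, 2, 3 or 4 or CC-NfL replicate 3, each left out alone. A quasi-binomial model of the same ratio gave -1.02 (SE 0.45, unadjusted p = 0.0643), and limma on the share of vascular cells gave -0.45 (unadjusted p = 0.542). As a share of annotated cells, either NfL against vehicle was -0.48 in b1 and -0.68 in b2, and the difference of -0.19 (SE 0.79) did not pass limma's test.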

How the results depend on the processing

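No comparison of VSMC between treatments passed the test under any alternative run, but for VSMC per pericyte many alternatives could not pass. The smallest p possible there was 0.333 or 0.0667 in b1 alone, 0.10 or 0.0667 with a library left out of either protein against vehicle, and 0.10 between the proteins. Within batches there were 18 splits for each protein against vehicle and 12 between the proteins. With the replicate block there were 8 in each of these. Such numbers of splits are too few for a p under 0.05. Of the shares of annotated cells, FL-NfL, CC-NfL and either NfL against vehicle had log2 odds ratios below 0 in every alternative run, 2 of which could not move them, since they removed no class and no cell. With each library left out, FL-NfL against vehicle ran from -0.86 to -0.24 (without FL-NfL replicate 1), CC-NfL from -0.83 to -0.19 (without CC-NfL replicate 3) and either NfL from -0.72 to -0.37. FL-NfL against CC-NfL, near 0, turned positive on the arcsine scale (0.00159 radians), in the quasi-binomial model (0.50), with weights (0.20), without the 3 libraries numbered 1 (0.24) and over non-immune cells (0.0227), and ran from -0.36 to 0.33 with each library left out. The batch difference kept its direction, but no longer passed on the arcsine scale (0.0359 radians) or without the libraries numbered 1 (1.50). It ran from 1.58 to 2.04 with each library left out. Among vascular cells the batch difference passed in 17 of 17 alternatives. FL-NfL against CC-NfL there came to -0.00367 in the quasi-binomial model, -0.05 with the centred log ratio, -0.06 without the libraries numbered 1 and -0.25 without CC-NfL replicate 1. FL-NfL against vehicle there came to -0.06 with the centred log ratio and -0.10 without FL-NfL replicate 1. CC-NfL against vehicle turned there with the centred log ratio (-0.00494), the quasi-binomial model (-0.22), weights (-0.0433), no batch term (-0.0823) and without the libraries numbered 1 (-0.21), and ran from -0.0493 to 0.62 with each library left out. Either NfL against vehicle turned in b1 alone (0.14) and with the replicate block (0.00393), and ran from -0.23 to 0.17. For VSMC per pericyte, FL-NfL against vehicle turned within batches (0.0906), in b1 alone (0.43) and with the replicate block (0.10), and ran from -0.85 to 0.19. CC-NfL against vehicle turned in b1 alone (0.52) and with the block (0.00780), and ran from -0.81 to 0.10. FL-NfL against CC-NfL turned in b1 alone (-0.10), and ran from -0.48 to 0.47. Either NfL against vehicle turned in b1 alone (0.48) and with the block (0.0549), and ran from -0.76 to 0.14. The b2 minus b1 difference no longer passed in limma on the vascular share (-0.45) or the quasi-binomial model (-1.02), and ran from -1.37 to -0.89. The cause of these changes was not tested. The replicate block, which takes the place of the batch term and so gives no batch difference, changed no treatment call for VSMC. For VSMC per pericyte it allowed no call for a single protein against vehicle or between the proteins. In the shares of annotated cells, the block moved the classes called for either NfL against vehicle from 2 to 0 of 16. The correlations without the libraries numbered 1 were not run, as 3 libraries of b1 remain. Counts of 3 to 12 VSMC per b1 library, and 1 NfL library per protein in b2, limit every treatment comparison.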
